A study of Mus musculus with 9 samples.

Results

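The genes described here are 10 of the 37990 genes counted in mouse E14 embryonic stem cells: the ligand Wnt3a, the TCF/LEF transcription factors Lef1, Tcf7 and Tcf7l1, the Wnt inhibitors Axin2, Notum, Nkd1 and Sfrp5, and the caudal homeobox genes Cdx1 and Cdx4. They were matched by symbol to 10 Ensembl identifiers. They were chosen with earlier results of these counts known, so their differences between the groups are given as a description, with no test. The cells were grown on gelatin in 10% serum with 1000 U/ml leukaemia inhibitory factor. A lentivirus gave them a lasting short hairpin RNA against Sin3a (Sin3a knockdown), against Fam60a (Fam60a knockdown) or with no target (T2SC control). Total RNA was sequenced from 3 libraries in each of the 3 groups. The libraries titled T2SC were taken as the non-targeting controls by elimination, since the other titles name a targeted gene. All groups went through 24 h of virus, 12 h of recovery and selection with 2 ug/ml puromycin, and the labels call the libraries of a group biological replicates. Each library is a bulk measurement of drug-selected cells that keep part of the targeted transcript, not of a knockout clone. Sin3a holds together a corepressor complex that carries histone deacetylases. Fam60a, also named Sinhcaf, is one of its subunits.

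In canonical Wnt signalling a secreted Wnt binds Frizzled receptors with Lrp5 or Lrp6, the destruction complex of Axin and Apc is held off, and beta-catenin accumulates and joins TCF/LEF proteins on target genes. Axin2, Notum and Nkd1 are targets that restrain the pathway in turn, and Cdx1 and Cdx4 are targets that pattern the posterior embryo through Hox genes. In mouse embryonic stem cells Tcf7l1 (once named Tcf3) represses pluripotency genes and beta-catenin relieves this repression, and in the embryo Wnt3a acts in the primitive streak.

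Sin3a transcripts averaged 126 ± 13.4 CPM (reads per 1000000, TMM-scaled) in the Sin3a knockdown and 287 ± 21.9 CPM in the controls (SD, n = 3 each). This was a log2 fold change of -1.19 ± 0.11 (SE, edgeR adjusted p = 0.00149). Sin3a was also lower in the Fam60a knockdown, at 217 ± 9.90 CPM (SD, n = 3), with no overlap with the controls. The log2 fold change there was -0.40 ± 0.11 (SE). Its adjusted p was 0.0964 with edgeR, 0.00466 with edgeR without Sin3a knockdown replicate 3, and 0.00582 with DESeq2. Fam60a transcripts averaged 5.73 ± 0.75 CPM in the Fam60a knockdown and 13.5 ± 0.47 CPM in the controls (SD, n = 3 each). That is a log2 fold change of -1.23 ± 0.23 (SE, edgeR adjusted p = 0.028). In the Sin3a knockdown Fam60a averaged 15.6 ± 2.66 CPM (SD, n = 3, edgeR adjusted p = 0.609). The call of Fam60a in its own knockdown had an edgeR adjusted p of 0.00321 with Sin3a knockdown replicate 3 left out. It ended when any 1 of the other 8 libraries was left out instead of Sin3a knockdown replicate 3 (edgeR adjusted p of 0.051 to 0.133). Sin3a knockdown replicate 3 stood apart, with 2607872 reads against 5511453 to 7674887 in the others, and with a mean correlation of 0.885 with its own group against 0.935 to 0.9815. Results that rest on it are also given without it. A floor of 3 reads corresponded to 0.391 to 1.15 CPM by library total, without the TMM scaling of the other CPM values. It covers counting error only. The p-values measure the spread between the libraries of a group.

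All 10 members passed the filter on low counts, Cdx4 only with the Fam60a knockdown included, where it was high. Axin2 was higher, and Tcf7l1, Notum and Sfrp5 were lower, in both knockdowns, with no overlap between the 3 libraries of either knockdown and those of the controls. Wnt3a and Cdx1 were lower than the controls in every Sin3a knockdown library and higher in every Fam60a knockdown library. Lef1 was lower, and Cdx4 higher, in every Fam60a knockdown library than in every library of both other groups. Tcf7 and Nkd1 differed less clearly, and Sin3a knockdown replicate 3 was far from its own group for both.

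In the Sin3a knockdown against the controls, 1 member was called higher and 4 lower at an edgeR adjusted p under 0.05, where 3.91% of the 14465 genes tested were called higher and 6.28% lower. In the Fam60a knockdown against the controls, 2 members were called higher and 3 lower, where 1.49% of all genes were called higher and 1.44% lower. Between the Sin3a and the Fam60a knockdown, 1 member was called higher and 2 lower, where 0.878% of all genes were called higher and 2.18% lower. Libraries did not overlap for 6 members in the Sin3a knockdown against the controls (33.2% of all genes), for 9 in the Fam60a knockdown against the controls (34.4%) and for 5 between the knockdowns (25.5%). With the replicate number as a block, 5 members were called in the Sin3a knockdown against the controls (15.0% of all genes), 7 in the Fam60a knockdown against the controls (6.13%) and 4 between the knockdowns (4.65%). The block added Lef1 (lower) and Wnt3a (higher) in the Fam60a knockdown against the controls, and Cdx4 (lower) between the knockdowns. Without Sin3a knockdown replicate 3 the counts were 5 in the Sin3a knockdown against the controls (24.5% of all genes), 8 in the Fam60a knockdown against the controls (16.9%) and 5 between the knockdowns (14.7%). DESeq2 called 5 members in the Sin3a knockdown against the controls (17.3% of all genes), 7 in the Fam60a knockdown against the controls (8.16%) and 4 between the knockdowns (9.21%). Since the members were selected on these contrasts, nothing is read from these counts, and the comparisons with the controls share the same 3 control libraries.

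**Figure D1:**
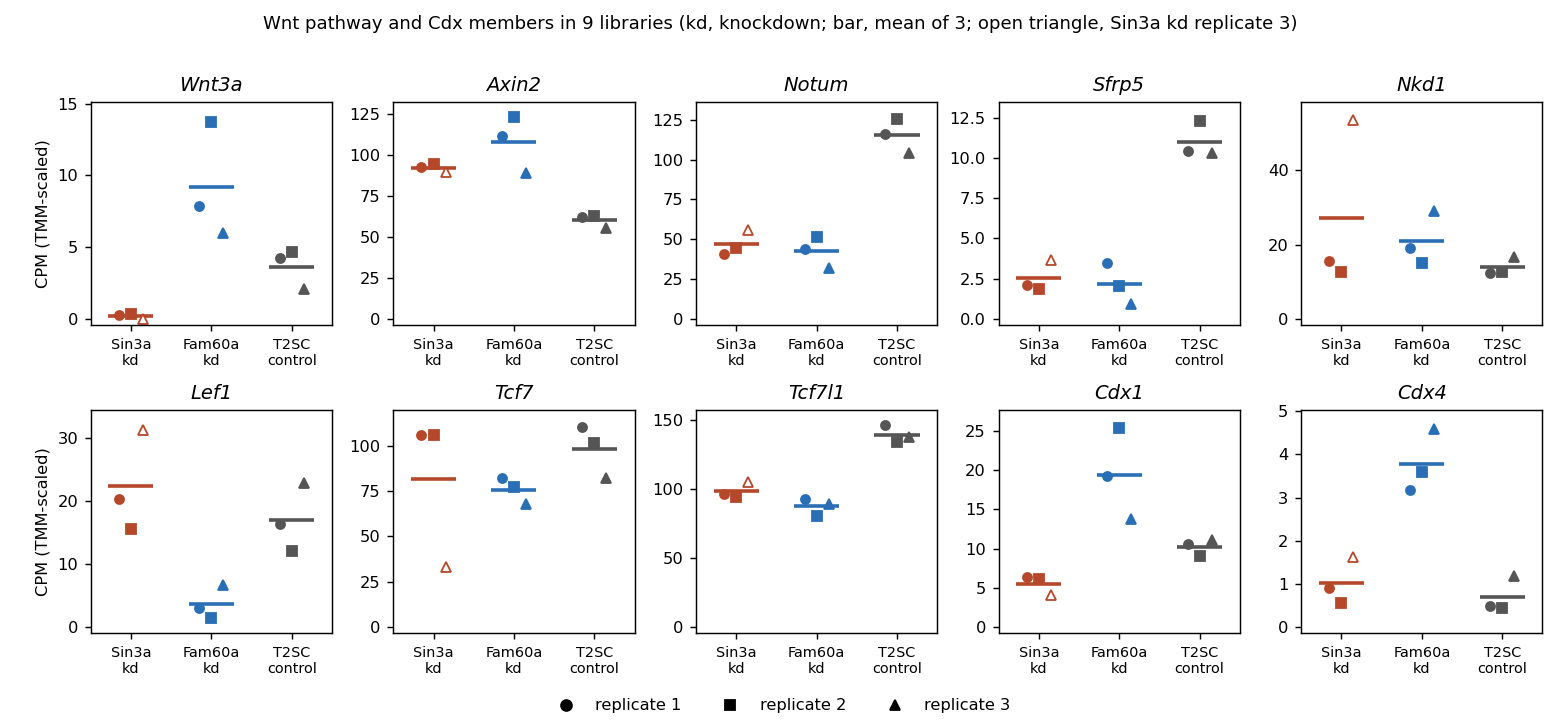
Level of each of the 10 members in the 9 libraries, in TMM-scaled CPM on linear axes, for the Sin3a knockdown, the Fam60a knockdown and the T2SC control; symbols give the replicate number, bars the mean of 3 libraries and the open triangle Sin3a knockdown replicate 3. Axin2 stands above the controls in all 6 knockdown libraries and Notum, Sfrp5 and Tcf7l1 below them, while Wnt3a and Cdx1 lie below the controls in the Sin3a knockdown and above them in the Fam60a knockdown.

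Promoter windows of 300 bases, 250 before and 50 after an annotated start, were given by RefSeq on GRCm38.p6 for 8 of the 10 members, 12 windows in all; Cdx1 and Notum had no entry. They were searched on both strands for 4 TCF/LEF heptamers: for CTTTGAA, for CTTTGAT, for CTTTGTA and for CTTTGTT. These heptamers cannot start at the same base of a strand. A heptamer was found in 1 of the 12 windows, at an annotated start inside Lef1, while 16.9% of all 32851 windows held at least 1. The windows printed here are those of a member on opposite sides of the controls in the knockdowns (Wnt3a), of one higher in both (Axin2) and of one lower in both (Sfrp5), and the window with the match (Lef1). Capitals mark the heptamer, which reads as CTTTGTA on the other strand and begins 147 bases before the start.
Wnt3a, chr11:59290702-59291001, minus strand: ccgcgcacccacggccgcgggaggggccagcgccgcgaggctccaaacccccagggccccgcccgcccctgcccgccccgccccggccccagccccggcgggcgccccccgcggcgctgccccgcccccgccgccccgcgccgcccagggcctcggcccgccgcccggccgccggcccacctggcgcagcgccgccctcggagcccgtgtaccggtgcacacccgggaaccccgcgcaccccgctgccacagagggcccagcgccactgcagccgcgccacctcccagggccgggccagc
Axin2, chr11:108920099-108920398, plus strand: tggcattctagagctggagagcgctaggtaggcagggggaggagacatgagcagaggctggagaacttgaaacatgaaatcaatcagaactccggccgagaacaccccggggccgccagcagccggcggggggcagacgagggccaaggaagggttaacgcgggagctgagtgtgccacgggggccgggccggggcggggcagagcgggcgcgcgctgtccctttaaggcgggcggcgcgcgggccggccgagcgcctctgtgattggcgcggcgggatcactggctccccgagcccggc
Sfrp5, chr19:42202203-42202502, minus strand: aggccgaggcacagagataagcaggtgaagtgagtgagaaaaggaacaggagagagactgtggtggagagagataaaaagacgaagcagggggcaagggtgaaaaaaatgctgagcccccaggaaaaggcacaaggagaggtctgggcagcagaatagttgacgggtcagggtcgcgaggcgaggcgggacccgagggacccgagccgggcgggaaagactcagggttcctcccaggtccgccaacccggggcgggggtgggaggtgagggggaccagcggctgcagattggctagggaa
Lef1, chr3:131156044-131156343, plus strand: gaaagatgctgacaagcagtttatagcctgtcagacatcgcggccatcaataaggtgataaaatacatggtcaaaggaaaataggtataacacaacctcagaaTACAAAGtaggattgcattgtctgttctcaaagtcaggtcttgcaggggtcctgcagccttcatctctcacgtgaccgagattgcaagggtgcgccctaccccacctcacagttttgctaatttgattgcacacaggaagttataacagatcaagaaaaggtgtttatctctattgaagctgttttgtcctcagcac
The Wnt3a window had a GC content of 86.3%, the Axin2 window 70.0%, the Sfrp5 window 61.3% and the Lef1 window 43.7%. A match describes letters and not a bound site, and an absent match concerns these windows alone.

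Levels of different genes are set against each other only per length of annotated exon. In the controls the order was Notum at 47.9 ± 4.35, Tcf7 at 37.4 ± 5.43, Tcf7l1 at 35.6 ± 1.66, Axin2 at 10.9 ± 0.74, Cdx1 at 5.85 ± 0.57, Sfrp5 at 5.79 ± 0.59, Nkd1 at 3.06 ± 0.53, Lef1 at 1.94 ± 0.62, Wnt3a at 1.32 ± 0.50 and Cdx4 at 0.36 ± 0.22 CPM per kilobase (SD, n = 3). The neighbours Tcf7 and Tcf7l1, Cdx1 and Sfrp5, and Lef1 and Wnt3a differed by less than the larger of their SDs. The highest levels in the Sin3a knockdown were those of Tcf7 at 31.1 ± 16.1, Tcf7l1 at 25.2 ± 1.43, Notum at 19.6 ± 3.31 and Axin2 at 16.7 ± 0.45 CPM per kilobase. In the Fam60a knockdown they were those of Tcf7 at 28.8 ± 2.78, Tcf7l1 at 22.4 ± 1.56, Axin2 at 19.5 ± 3.13 and Notum at 17.6 ± 4.02 CPM per kilobase. Notum, which led in the controls, stood below Tcf7l1 and near Axin2 in both knockdowns.

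Wnt3a (ENSMUSG00000009900; GENCODE M21 on GRCm38, chromosome 11, 59248033 to 59290752, minus strand) encodes the ligand of the set. It measured 0.305, 0.371 and 0 CPM in the Sin3a knockdown and 7.86, 13.7 and 6.01 CPM in the Fam60a knockdown. The controls had 4.24, 4.63 and 2.09 CPM. The 3 groups did not overlap, with the Sin3a knockdown lowest and the Fam60a knockdown highest. The log2 fold change against the controls was -3.65 ± 0.67 in the Sin3a knockdown and 1.33 ± 0.45 in the Fam60a knockdown, and between the Sin3a and Fam60a knockdowns it was -4.98 ± 0.64 (SE, n = 3 libraries a group). The Sin3a knockdown value rests on 4 reads in all, against 197 in the Fam60a knockdown and 72 in the controls. By the floor of 3 reads, the 0 reads of replicate 3 allow about 1.15 CPM without TMM scaling. In bulk RNA, fewer cells that make a transcript and less of it per cell cannot be told apart. Wnt3, a paralog with a role in the streak, had 12 reads in the Sin3a knockdown, 5 in the Fam60a knockdown and 10 in the controls over 3 libraries each and was too low to be tested.

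Tcf7l1 (ENSMUSG00000055799) encodes the TCF/LEF protein that mainly represses. Its locus is chromosome 6, 72626378 to 72789254, minus strand. It measured 97.0, 94.5 and 105 CPM in the Sin3a knockdown and 92.7, 81.0 and 89.7 CPM in the Fam60a knockdown. The controls had 147, 134 and 138 CPM. All 6 knockdown libraries lay below the lowest control, and the Fam60a knockdown lay below the Sin3a knockdown without overlap. The log2 fold change was -0.50 ± 0.11 in the Sin3a knockdown and -0.67 ± 0.11 in the Fam60a knockdown (SE), with means at 70.8% and 62.8% of the control mean. Between libraries of the same number, the difference ranged from -0.60 to -0.39 in the Sin3a knockdown and from -0.73 to -0.62 in the Fam60a knockdown on the log2 scale.

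Lef1 (ENSMUSG00000027985) encodes a factor which mostly activates and is a Wnt target in many tissues. It is found on chromosome 3, 131110471 to 131224356, plus strand. It measured 20.3, 15.6 and 31.3 CPM in the Sin3a knockdown and 3.02, 1.41 and 6.64 CPM in the Fam60a knockdown. The controls had 16.3, 12.0 and 22.8 CPM. The Fam60a knockdown libraries lay below all 6 others, and the Sin3a knockdown overlapped the controls. Against the controls the log2 fold change was 0.38 ± 0.49 in the Sin3a knockdown and -2.22 ± 0.53 in the Fam60a knockdown, and between the Sin3a and Fam60a knockdowns it was 2.60 ± 0.54 (SE). Between libraries of the same number, Lef1 differed by -2.31, -2.83 and -1.73 on the log2 scale in the Fam60a knockdown against the controls.

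Tcf7 (ENSMUSG00000000782) encodes another mostly activating family member. It maps to chromosome 11, 52252371 to 52283014, minus strand. It measured 106, 106 and 32.9 CPM in the Sin3a knockdown and 82.0, 77.3 and 67.7 CPM in the Fam60a knockdown. The controls had 110.3, 101.5 and 82.4 CPM. The lowest value is that of Sin3a knockdown replicate 3, and the Fam60a knockdown lay just below the controls without overlap. The log2 fold change was -0.25 ± 0.36 in the Sin3a knockdown, or 0.12 ± 0.12 without that library, and -0.37 ± 0.36 in the Fam60a knockdown (SE).

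Added per length, Tcf7, Tcf7l1, Lef1 and the fourth gene of the family, Tcf7l2, came to 61.7 ± 14.1 CPM per kilobase in the Sin3a knockdown and 53.1 ± 3.01 in the Fam60a knockdown, against 78.0 ± 6.20 in the controls (SD, n = 3 each). Replicate 3 lowers the Sin3a knockdown mean: by library its sum was 70.33, 69.35 and 45.5 CPM per kilobase, against 84.45, 77.33 and 72.11 in the controls. Lef1 made up 4.55 ± 2.85% of this sum in the Sin3a knockdown and 0.80 ± 0.61% in the Fam60a knockdown, against 2.52 ± 0.96% in the controls. Without replicate 3 of each group the mean Lef1 share was 2.92% in the Sin3a knockdown and 0.459% in the Fam60a knockdown, against 1.98% in the controls. Tcf7l1 made up 42.9 ± 13.9% in the Sin3a knockdown and 42.2 ± 2.48% in the Fam60a knockdown, against 45.8 ± 2.54% in the controls, and its share in the Sin3a knockdown was 34.9% without replicate 3. The repressor and Tcf7 thus held most of the family's transcripts in all 9 libraries, and the Lef1 share was lowest in the Fam60a knockdown. These sums and shares are descriptions, with no test.

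**Figure D2:**
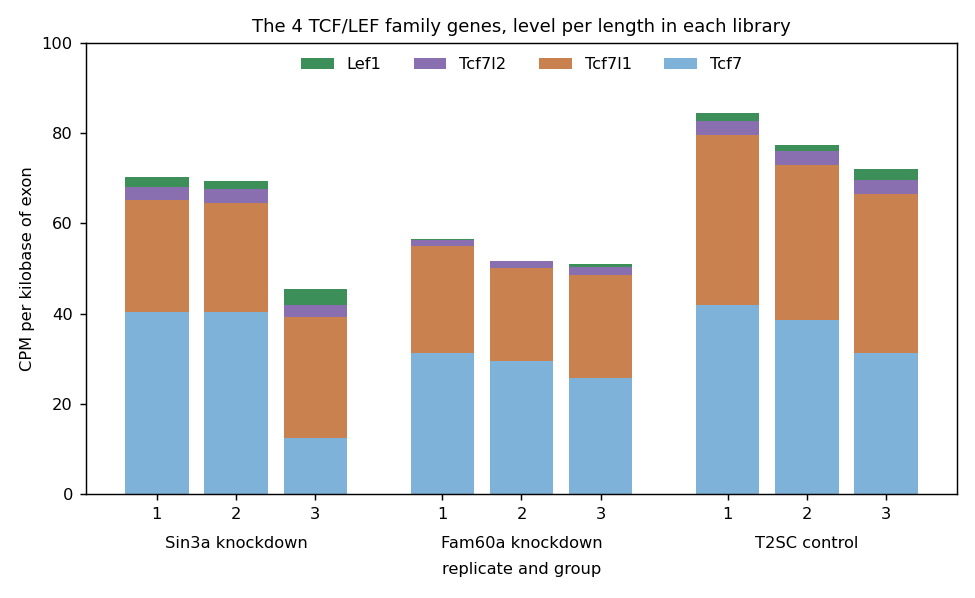
Stacked levels of Tcf7, Tcf7l1, Tcf7l2 and Lef1 in CPM per kilobase of exon, with 1 bar for each library of the Sin3a knockdown, the Fam60a knockdown and the T2SC control on a linear axis from 0. Tcf7 and Tcf7l1 fill most of every bar, the Lef1 layer is thinnest in the Fam60a knockdown, and Sin3a knockdown replicate 3 has the shortest Tcf7 layer.

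Axin2 (ENSMUSG00000000142) encodes a scaffold of the destruction complex, and its transcript is a common readout of Wnt signalling. The gene lies on chromosome 11, 108920349 to 108950783, plus strand. It measured 92.8, 94.2 and 89.4 CPM in the Sin3a knockdown and 111, 123 and 88.9 CPM in the Fam60a knockdown. The controls had 62.2, 62.5 and 55.3 CPM. Every knockdown library lay above the highest control, and the knockdowns overlapped each other. As a log2 fold change this was 0.62 ± 0.14 in the Sin3a knockdown and 0.84 ± 0.14 in the Fam60a knockdown (SE), or 1.54 and 1.79 times the control mean. Its paralog Axin1, made in most cells, averaged 209 ± 73.1 CPM in the Sin3a knockdown and 147 ± 9.96 CPM in the Fam60a knockdown, against 160 ± 8.77 CPM in the controls (SD, n = 3 each). With edgeR, the adjusted p was 0.285 in the Sin3a and 0.943 in the Fam60a knockdown, so neither passed.

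Notum (ENSMUSG00000042988) encodes a secreted enzyme that strips the lipid from Wnt proteins. Its locus is chromosome 11, 120653788 to 120661175, minus strand. It measured 40.7, 44.8 and 56.1 CPM in the Sin3a knockdown and 43.7, 51.3 and 32.1 CPM in the Fam60a knockdown. The controls had 116, 125 and 104 CPM. No knockdown library came near the lowest control. On the log2 scale, the fold change was -1.30 ± 0.20 in the Sin3a knockdown and -1.44 ± 0.20 in the Fam60a knockdown (SE), with means at 40.9% and 36.7% of the control mean. Notumos, an annotated antisense gene that overlaps Notum, had 14, 9 and 8 reads in the Sin3a knockdown and 6, 8 and 3 reads in the Fam60a knockdown, against 41, 31 and 40 in the controls. The library kit keeps strand, and the names of the deposited files carry the code for reverse-stranded counting.

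Sfrp5 (ENSMUSG00000018822) encodes a secreted Frizzled-related protein that binds Wnt ligands. It is found on chromosome 19, 42197971 to 42202252, minus strand. It measured 2.13, 1.86 and 3.66 CPM in the Sin3a knockdown and 3.47, 2.05 and 0.949 CPM in the Fam60a knockdown. The controls had 10.4, 12.3 and 10.3 CPM. The lowest control stood well above the highest knockdown library. The fitted log2 fold change was -2.17 ± 0.45 in the Sin3a knockdown and -2.34 ± 0.44 in the Fam60a knockdown (SE), from 33 and 45 reads in all, against 218 in the controls.

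Nkd1 (ENSMUSG00000031661) encodes an inhibitor that binds Dishevelled. It maps to chromosome 8, 88521354 to 88594884, plus strand. It measured 15.6, 12.6 and 53.6 CPM in the Sin3a knockdown and 19.2, 15.0 and 28.9 CPM in the Fam60a knockdown. The controls had 12.4, 12.7 and 16.7 CPM. Both knockdowns overlapped the controls, and the highest value was that of Sin3a knockdown replicate 3, at 3.81 times the mean of the other libraries of its group. Its log2 fold change was 0.93 ± 0.53 in the Sin3a knockdown, or 0.02 ± 0.29 without that library, and 0.59 ± 0.52 in the Fam60a knockdown (SE). Its paralog Nkd2 averaged 7.83 ± 0.80 CPM in the Sin3a knockdown and 6.70 ± 2.07 CPM in the Fam60a knockdown, against 8.92 ± 3.37 CPM in the controls (SD, n = 3 each), with an edgeR adjusted p of 0.789 in the Sin3a and 0.747 in the Fam60a knockdown.

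Cdx1 (ENSMUSG00000024619) encodes a caudal homeobox factor first made in the late streak. The gene lies on chromosome 18, 61018862 to 61036199, minus strand. It measured 6.40, 6.13 and 4.06 CPM in the Sin3a knockdown and 19.2, 25.3 and 13.8 CPM in the Fam60a knockdown. The controls had 10.6, 9.11 and 11.0 CPM. The groups did not overlap and stood in the same order as for Wnt3a. The log2 fold change against the controls was -0.86 ± 0.30 in the Sin3a knockdown and 0.92 ± 0.28 in the Fam60a knockdown, and between the Sin3a and Fam60a knockdowns it was -1.78 ± 0.30 (SE).

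Cdx4 (ENSMUSG00000031326) is the most posterior of the caudal factors in the mouse embryo. Its locus is chromosome X, 103321398 to 103330592, plus strand. It measured 0.915, 0.557 and 1.63 CPM in the Sin3a knockdown and 3.17, 3.59 and 4.59 CPM in the Fam60a knockdown. The controls had 0.489, 0.434 and 1.19 CPM. The Fam60a knockdown stood above all other libraries, and the Sin3a knockdown overlapped the controls. As a log2 fold change this was 0.40 ± 0.56 in the Sin3a knockdown and 2.38 ± 0.47 in the Fam60a knockdown (SE), from 13 and 78 reads in all, against 14 in the controls. Several of these values lie near the floor of 3 reads. Cdx4 passed the filter on low counts only with the Fam60a knockdown included, where it had 21, 28 and 29 reads. Its rise there, and its place in the counts of called members, are therefore descriptions.

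Cdx2, the third caudal gene and not a member, measured 2.90, 1.86 and 19.1 CPM in the Sin3a knockdown and 3.17, 1.93 and 11.5 CPM in the Fam60a knockdown. The controls had 0.652, 0.434 and 4.62 CPM. Replicate 3 was highest in each group, and the groups overlapped. Cdx2 was called in neither knockdown without a block (edgeR adjusted p of 0.34 in the Sin3a and 0.659 in the Fam60a knockdown), but with the replicate number as a block it was higher in both (edgeR adjusted p of 0.0105 in the Sin3a and 0.0285 in the Fam60a knockdown). Of 18 central and posterior Hox genes, which Cdx proteins regulate in the embryo, 5 were abundant enough to test, and 0 were called in either knockdown by edgeR or by DESeq2, with 0 at an unadjusted p under 0.05. Their summed level was 10.2 to 12.4 CPM in the Sin3a knockdown and 14.1 to 23.2 CPM in the Fam60a knockdown, against 15.3 to 25.3 CPM in the controls.

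**Figure D3:**
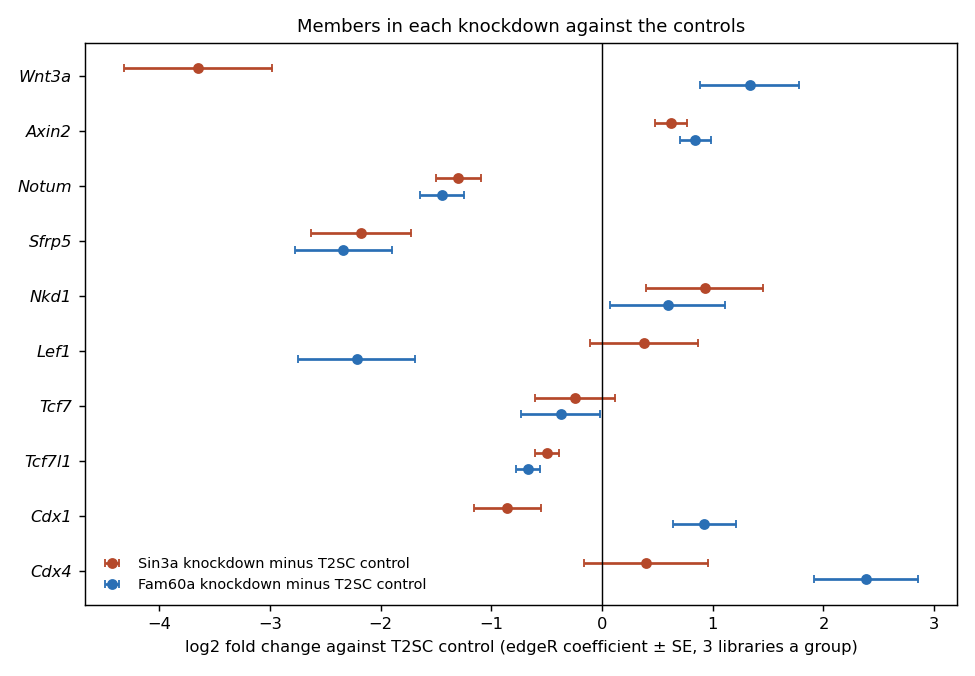
Log2 fold change of each of the 10 members in the Sin3a knockdown and in the Fam60a knockdown against the T2SC control, with bars of 1 SE from the fit of all 9 libraries. Notum, Sfrp5, Tcf7l1 and Axin2 have like values in both knockdowns, while Wnt3a, Lef1, Cdx1 and Cdx4 have values apart; the members were selected on these contrasts.

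Beyond the members, 106 other genes of the pathway were listed by role, and 82 of them were tested. In the Sin3a knockdown against the controls 3 rose and 7 fell, 12.2% of those tested, where 10.2% of all genes were called. The median log2 difference of the 82 was -0.002, beside -0.012 over all genes tested. In the Fam60a knockdown against the controls 1 rose and 3 fell, 4.88% of those tested, where 2.92% of all genes were called. The median there was -0.023, beside -0.021 over all genes. Between the Sin3a and the Fam60a knockdown 3 were higher and 1 lower, 4.88% of those tested, where 3.06% of all genes were called, with a median of 0.04 beside -0.014. Some of these genes had been seen in earlier results of these data, and the count was not compared with other lists. It depended on single libraries. Without Sin3a knockdown replicate 3, 83 of these genes were tested. Then 20 were called in the Sin3a knockdown (beside 24.5% of all genes), 19 in the Fam60a knockdown (16.9%) and 12 between the knockdowns (14.7%). Without T2SC control replicate 2 each of the 3 counts was 1. Without T2SC control replicate 1 they were 2 in the Sin3a knockdown, 0 in the Fam60a knockdown (17 at an unadjusted p under 0.05) and 0 between the knockdowns (11 at an unadjusted p under 0.05). When the replicate number was a block they were 17 in the Sin3a knockdown (beside 15.0% of all genes), 8 in the Fam60a knockdown (6.13%) and 5 between the knockdowns (4.65%). For the fits without T2SC control replicate 1 or 2 the share over all genes is not given. Their counts are thus not set apart from a change over all genes.

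Among 9 tested ligands, Wnt8a, a streak ligand, rose in the Fam60a knockdown, where it averaged 3.47 ± 0.90 CPM, against 0.60 ± 0.13 CPM in the controls (SD, n = 3 each). Its log2 fold change was 2.48 ± 0.53 (SE, edgeR adjusted p = 0.0455). Wnt8a had 3, 4 and 5 reads in the controls. It passed the filter on low counts only with the Fam60a knockdown included, where it was high (17, 34 and 22 reads). Its rise is therefore given as a description. In the Sin3a knockdown Wnt8a measured 1.68, 0.929 and 4.06 CPM, above the controls in 3 of 3 libraries (edgeR adjusted p = 0.105). Wnt5a, a ligand that mainly acts without beta-catenin, fell in the Fam60a knockdown to 1.16 ± 0.05 CPM, against 5.88 ± 2.44 CPM in the controls (SD, n = 3 each). This was a log2 fold change of -2.33 ± 0.46 (SE, edgeR adjusted p = 0.0346). Wnt5a passed the filter on low counts only with the controls included, where it was high, so its fall is likewise a description. In the Sin3a knockdown it measured 1.53, 1.67 and 4.06 CPM (edgeR adjusted p = 0.0888, and 0.0131 without replicate 3). In the Fam60a knockdown DESeq2 called 3 of the 9 ligands higher and 1 lower (8.16% of all genes were called). There edgeR without Sin3a knockdown replicate 3 called 4 higher and 1 lower (16.9%). The 18 listed ligands summed to 65.1, 61.5 and 175 CPM in the Sin3a knockdown and 101 to 130 CPM in the Fam60a knockdown, against 49.2 to 76.7 CPM in the controls. In a further list of Wnt secretion and R-spondin genes, of which 3 were tested, edgeR called 1. For the Fam60a knockdown DESeq2 called 1 of these 3 higher and 1 lower. Porcn, which adds the lipid that Wnt proteins need for secretion, fell in the Sin3a knockdown to 28.9 ± 9.50 CPM, against 62.0 ± 8.09 CPM in the controls (SD, n = 3 each). That is a log2 fold change of -1.08 ± 0.26 (SE, edgeR adjusted p = 0.0291). Porcn averaged 57.7 ± 10.4 CPM in the Fam60a knockdown (edgeR adjusted p = 0.968), and between the Sin3a and Fam60a knockdowns its difference was -0.98 ± 0.26 (SE, edgeR adjusted p = 0.0803, and 0.0363 with the replicate block).

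Of 17 tested receptors and coreceptors, Ror1, a Wnt5a receptor, rose in the Sin3a knockdown to 7.19 ± 1.04 CPM, against 1.62 ± 0.46 CPM in the controls (SD, n = 3 each). Its log2 fold change was 2.14 ± 0.33 (SE, edgeR adjusted p = 0.00623). Ror1 averaged 3.86 ± 0.77 CPM in the Fam60a knockdown, where all 3 libraries lay above the controls (edgeR adjusted p = 0.0837). It was called higher there without Sin3a knockdown replicate 3 (edgeR adjusted p = 0.0288) and with DESeq2 (adjusted p = 0.0378). Fzd1 rose in the Sin3a knockdown, by 1.47 ± 0.30 on the log2 scale (SE, edgeR adjusted p = 0.0175), and Fzd2 fell there by 1.72 ± 0.38 (SE, edgeR adjusted p = 0.0241). Both encode Frizzled receptors. Fzd1 measured 8.46, 9.24 and 6.80 CPM in the Fam60a knockdown, against 4.07, 4.19 and 4.17 CPM in the controls. Its adjusted p there was 0.124 with edgeR, 0.0242 with edgeR without Sin3a knockdown replicate 3, and 0.0447 with DESeq2. Fzd2 measured 8.84, 7.43 and 11.8 CPM in the Sin3a knockdown and 21.3, 25.2 and 9.01 CPM in the Fam60a knockdown. The controls had 25.6, 35.3 and 30.2 CPM.

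Of 9 tested secreted and membrane inhibitors, Sfrp1 and Sfrp4, relatives of Sfrp5, fell in the Sin3a knockdown. Sfrp1 measured 114, 104 and 64.2 CPM in the Sin3a knockdown and 149, 142 and 84.6 CPM in the Fam60a knockdown. The controls had 228, 215 and 174 CPM. Its log2 fold change was -1.12 ± 0.26 in the Sin3a knockdown (SE, edgeR adjusted p = 0.0294) and -0.71 ± 0.26 in the Fam60a knockdown (edgeR adjusted p = 0.206, and 0.024 with the replicate block). Sfrp4 averaged 7.67 ± 1.91 CPM in the Sin3a knockdown and 10.5 ± 5.48 CPM in the Fam60a knockdown, against 28.2 ± 9.67 CPM in the controls (SD, n = 3 each). Its log2 fold change was -1.87 ± 0.43 in the Sin3a knockdown (SE, edgeR adjusted p = 0.0277) and -1.41 ± 0.42 in the Fam60a knockdown (edgeR adjusted p = 0.116, and 0.0283 with the replicate block). Sfrp2, another tested relative, averaged 25.9 ± 1.75 CPM in the Sin3a knockdown and 22.4 ± 6.14 CPM in the Fam60a knockdown, against 33.8 ± 3.95 CPM in the controls (SD, n = 3 each). The adjusted p from edgeR was 0.341 in the Sin3a and 0.244 in the Fam60a knockdown, so neither passed.

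Of 22 tested cytoplasmic genes, Dact1, which binds Dishevelled, rose in the Sin3a knockdown to 65.9 ± 15.8 CPM, against 28.3 ± 5.18 CPM in the controls (SD, n = 3 each). This was a log2 fold change of 1.22 ± 0.22 (SE, edgeR adjusted p = 0.0107). Dact1 averaged 29.4 ± 2.69 CPM in the Fam60a knockdown and was higher in the Sin3a than in the Fam60a knockdown by 1.16 ± 0.22 on the log2 scale (SE, edgeR adjusted p = 0.027). Apc2, a relative of the destruction complex scaffold Apc, fell in the Sin3a knockdown by 1.58 ± 0.42 on the log2 scale (SE, edgeR adjusted p = 0.0464). It had 12 reads in the Sin3a knockdown, against 53 in the controls. Apc2 passed the filter on low counts only with the controls included, where it was high, so its fall is given as a description. Ctnnb1, which encodes beta-catenin, averaged 414 ± 22.1 CPM in the Sin3a knockdown and 365 ± 27.1 CPM in the Fam60a knockdown, against 382 ± 15.9 CPM in the controls (SD, n = 3 each). Its edgeR adjusted p was 0.506 in the Sin3a and 0.925 in the Fam60a knockdown, so neither passed.

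Of 11 tested nuclear factors, Tcf7l2, the fourth TCF/LEF gene, measured 25.9, 27.1 and 22.7 CPM in the Sin3a knockdown and 11.6, 13.4 and 14.2 CPM in the Fam60a knockdown. The controls had 27.5, 27.0 and 26.4 CPM. It fell in the Fam60a knockdown, with a log2 fold change of -1.05 ± 0.18 (SE, edgeR adjusted p = 0.0195), and was higher in the Sin3a than in the Fam60a knockdown by 0.95 ± 0.18 (SE, edgeR adjusted p = 0.0282). Lef1 and Tcf7l1, both chosen with their values known, likewise had all Fam60a knockdown libraries below those of both other groups. Tle2, a Groucho corepressor that TCF/LEF proteins recruit, was lower in the Sin3a than in the Fam60a knockdown by 2.76 ± 0.56 on the log2 scale (SE, edgeR adjusted p = 0.0374), with 2.85 ± 1.45 CPM in the Sin3a knockdown and 18.1 ± 6.36 CPM in the Fam60a knockdown, beside 9.26 ± 5.67 CPM in the controls (SD, n = 3 each). Against the controls, the Tle2 log2 fold change in the Sin3a knockdown was -1.80 ± 0.56 (SE, edgeR adjusted p = 0.0771, and 0.0288 with the replicate block).

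Of 11 tested target genes, Ccnd1, the cyclin D1 gene, averaged 105 ± 4.11 CPM in the Sin3a knockdown and 66.7 ± 11.3 CPM in the Fam60a knockdown, against 154 ± 10.0 CPM in the controls (SD, n = 3 each). It fell in both, by 0.55 ± 0.14 in the Sin3a knockdown (SE, edgeR adjusted p = 0.0405) and by 1.21 ± 0.14 in the Fam60a knockdown (edgeR adjusted p = 0.00852) on the log2 scale, and was higher in the Sin3a than in the Fam60a knockdown by 0.66 ± 0.14 (edgeR adjusted p = 0.044). Ephb2, a receptor of ephrins, fell in the Sin3a knockdown by 0.59 ± 0.15 on the log2 scale (SE, edgeR adjusted p = 0.0351), to 56.9 ± 7.54 CPM, against 86.1 ± 10.9 CPM in the controls (SD, n = 3 each). Sp5, a direct target in the streak, averaged 3.24 ± 1.21 CPM in the Sin3a knockdown and 6.26 ± 3.89 CPM in the Fam60a knockdown, against 4.17 ± 1.49 CPM in the controls (SD, n = 3 each). With edgeR, the adjusted p was 0.647 in the Sin3a and 0.719 in the Fam60a knockdown, so neither passed. Brachyury, the gene T that marks the streak, averaged 2.35 ± 0.44 CPM in the Sin3a knockdown and 2.17 ± 1.35 CPM in the Fam60a knockdown, against 1.39 ± 0.81 CPM in the controls (SD, n = 3 each). The adjusted p from edgeR was 0.462 in the Sin3a and 0.71 in the Fam60a knockdown, so neither passed.

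Most of these calls depended on which libraries were in the fit. In the Sin3a knockdown against the controls, Ror1 was called under all 15 alternatives (edgeR adjusted p up to 0.0336) and Dact1 under all but the fit without T2SC control replicate 2 (0.0548). The calls of Fzd1, Fzd2, Porcn, Sfrp1, Sfrp4, Apc2, Ccnd1 and Ephb2 there ended without T2SC control replicate 1 (edgeR adjusted p of 0.0656 to 0.172) and without T2SC control replicate 2 (0.0727 to 0.172), and those of all but Sfrp1 ended without T2SC control replicate 3 (0.0553 to 0.144). Without Sin3a knockdown replicate 1 the calls of Fzd1, Fzd2, Porcn, Sfrp4, Apc2, Ccnd1 and Ephb2 ended (0.0528 to 0.154), and without Sin3a knockdown replicate 2 those of Fzd2, Sfrp1, Sfrp4, Apc2, Ccnd1 and Ephb2 (0.0554 to 0.142). Leaving out Fam60a knockdown replicate 1 ended the calls of Porcn, Sfrp4, Apc2, Ccnd1 and Ephb2 (0.0527 to 0.086), leaving out Fam60a knockdown replicate 2 those of Sfrp1, Apc2, Ccnd1 and Ephb2 (0.0508 to 0.0785), and leaving out Fam60a knockdown replicate 3 those of Apc2 and Ephb2 (0.0557 and 0.0645). With no filter on low counts the calls of Apc2, Ccnd1 and Ephb2 ended (edgeR adjusted p of 0.0719 to 0.0835). In the fit of the 6 libraries of these groups those of Fzd1, Porcn, Apc2, Ccnd1 and Ephb2 ended (0.0535 to 0.119). Apc2 was also lost with DESeq2 (adjusted p = 0.0584) and with DESeq2 size factors in edgeR (adjusted p = 0.0512), so its call held in 3 of 15 alternatives.

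In the Fam60a knockdown against the controls, the call of Ccnd1 ended only without T2SC control replicate 1 (edgeR adjusted p = 0.0551). The calls of Wnt8a, Wnt5a and Tcf7l2 ended without any 1 library of the Fam60a knockdown (0.0549 to 0.141) and without T2SC control replicate 1 or 2 (0.1 to 0.205), and those of Wnt8a and Tcf7l2 also without T2SC control replicate 3 (0.0623 and 0.106). Wnt8a was lost without Sin3a knockdown replicate 1 (0.0728), and Wnt5a without Sin3a knockdown replicate 1 or 2 (0.051 and 0.0527). Between the knockdowns, Tcf7l2 and Ccnd1 were lost without any 1 library other than Sin3a knockdown replicate 3 (edgeR adjusted p of 0.0563 to 0.135). The call of Dact1 held there without T2SC control replicate 3, and that of Tle2 without T2SC control replicate 2, and both ended without any other single library than these and Sin3a knockdown replicate 3 (edgeR adjusted p of 0.0506 to 0.131). In the fit of the 6 knockdown libraries all 4 of these calls ended (edgeR adjusted p of 0.102 to 0.167). With no filter Tcf7l2 and Ccnd1 were lost (both 0.065), and Ccnd1 was lost with upper-quartile scaling too (0.0591).

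**Figure D4:**
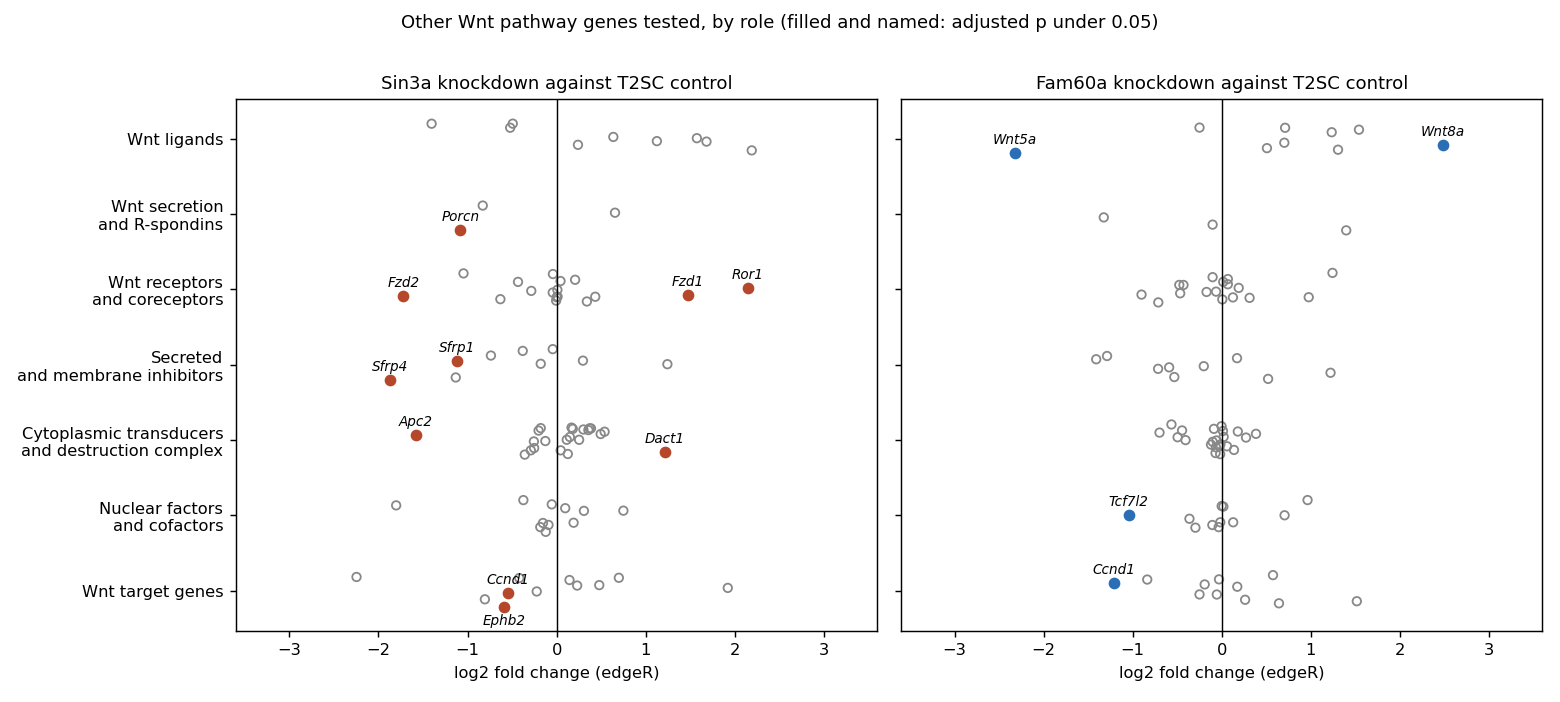
Log2 fold change of the 82 other Wnt pathway genes tested, by role, in the Sin3a knockdown (left) and the Fam60a knockdown (right) against the T2SC control; each circle is 1 gene and filled, named circles had an edgeR adjusted p under 0.05. In the Sin3a knockdown 3 are filled to the right and 7 to the left of 0, and in the Fam60a knockdown 1 to the right and 3 to the left.

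Of 5 pluripotency genes that Tcf7l1 represses in mouse embryonic stem cells, Klf2 fell in the Sin3a knockdown to 84.8 ± 11.7 CPM, against 144 ± 11.5 CPM in the controls (SD, n = 3 each). That is a log2 fold change of -0.77 ± 0.14 (SE, edgeR adjusted p = 0.0106). That call ended without T2SC control replicate 1 (edgeR adjusted p = 0.0731) or 2 (0.0523) and in the fit of 6 libraries (0.0517). Klf2 measured 108, 94.7 and 107 CPM in the Fam60a knockdown, below the controls in 3 of 3 libraries (edgeR adjusted p = 0.0994). Klf2 was called lower there without Sin3a knockdown replicate 3 (edgeR adjusted p = 0.0107) and with DESeq2 (adjusted p = 0.0219). Esrrb averaged 350.2 ± 41.3 CPM in the Sin3a knockdown and 359 ± 27.3 CPM in the Fam60a knockdown, against 397 ± 29.2 CPM in the controls (SD, n = 3 each). Its edgeR adjusted p was 0.381 in the Sin3a and 0.71 in the Fam60a knockdown, so neither passed. Nanog averaged 136 ± 35.4 CPM in the Sin3a knockdown and 130.3 ± 14.8 CPM in the Fam60a knockdown, against 165 ± 11.1 CPM in the controls (SD, n = 3 each). With edgeR, the adjusted p was 0.411 in the Sin3a and 0.466 in the Fam60a knockdown, so neither passed. Without Sin3a knockdown replicate 3, Nanog was called lower in the Fam60a knockdown (edgeR adjusted p = 0.0316).

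The labelled cell type was checked against 8 embryonic stem cell markers, whose summed level was 1246 to 1364 CPM in the Sin3a knockdown and 1120 to 1261 CPM in the Fam60a knockdown, against 1332 to 1463 CPM in the controls. Of these 8, Fgf4 fell in the Sin3a knockdown (edgeR adjusted p = 0.0335) and 0 were called in the Fam60a knockdown by edgeR (2 at an unadjusted p under 0.05, and 1 by DESeq2). The 7 primitive streak markers summed to 51.4 to 96.7 CPM in the Sin3a knockdown and 66.1 to 101.5 CPM in the Fam60a knockdown, against 23.7 to 57.1 CPM in the controls. Of 4 streak markers tested, 0 were called in either knockdown by edgeR, with 1 at an unadjusted p under 0.05 in the Sin3a and 3 in the Fam60a knockdown, and DESeq2 called 1 in each. With the replicate block edgeR called Foxa2 higher in the Sin3a knockdown, and Eomes and Foxa2 higher in the Fam60a knockdown. The 7 primitive endoderm markers summed to 970.1 to 1393 CPM in the Sin3a knockdown and 907 to 1478 CPM in the Fam60a knockdown, against 307 and 313 CPM in control replicates 1 and 2 and 1042 CPM in control replicate 3. Of these 7, edgeR called Gata6 higher in the Sin3a knockdown and 0 in the Fam60a knockdown (2 at an unadjusted p under 0.05, and 2 by DESeq2), and with the replicate block 6 and 4 were higher. The 7 fibroblast markers summed to 14.7 to 51.2 CPM in the Sin3a knockdown and 22.4 to 32.2 CPM in the Fam60a knockdown, against 31.1 to 73.2 CPM in the controls, and Postn, Dcn and Lum had 0 reads in the Sin3a knockdown. Of 3 fibroblast markers tested, Thy1 fell in the Sin3a knockdown (edgeR adjusted p = 0.00816) and 0 were called in the Fam60a knockdown by edgeR (1 at an unadjusted p under 0.05, and 0 by DESeq2). Over all 14465 genes tested, edgeR called 10.2% in the Sin3a and 2.92% in the Fam60a knockdown. With the replicate block it was 15.0% and 6.13%, and with DESeq2 17.3% and 8.16%. An unadjusted p under 0.05 was seen for 3741 and 2273 of these genes. Several of the marker counts are too small to be set apart from these shares. The summed streak markers were higher in the knockdowns than in control replicates 1 and 2, as were the summed primitive endoderm markers. Fgf4, Foxa2, Eomes, Gata6 and Thy1 are named here after their values were seen. The part of these cells in the members' results was not tested.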

How the data were processed

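The authors deposited 1 table per library of whole-number read counts per Ensembl gene, not normalized. Per the submitters' processing notes, STAR 2.4.0j, Picard and featureCounts of Subread were used, and per the file headers duplicate reads had been removed, which caps the counts of short, abundant genes. Per the labels' protocols the libraries were stranded and read as single ends of 50 bases. The names of the deposited files carry featureCounts' code for reverse-stranded counting. The sources used here give neither a genome build nor an annotation for the counts. For positions and exon lengths, 32937 of the 37990 gene IDs were found in GENCODE M21 (GRCm38).

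The counts passed filterByExpr and TMM scaling, and 1 quasi-likelihood model held all 9 libraries in 3 groups (edgeR 4.0.16, limma 3.58.1, R 4.3.3). A gene was called where its p, adjusted by Benjamini-Hochberg across the 14465 genes left, was under 0.05. The biological coefficient of variation was 0.25. Each SE was derived from a gene's log2 fold change and F value. Differences between libraries of the same number used log CPM with a prior count of 2. The fit was tested on simulated data. DESeq2 1.42.0, other scalings, no filter, a replicate block, fits of 2 groups and leaving out each library were alternatives.

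The model had no block. A check found that replicate numbers pair the samples: deviations from group means correlated at 0.178 to 0.622 in 9 pairs of libraries with the same number and at -0.448 to 0.113 in 18 pairs with different numbers, across genes. For other named genes the blocked value is given where it changes a call, and for the members, which carry no test, the calls with the block are counted. The printed SEs of the members come from the fit without the block and do not use the pairing. In the Fam60a knockdown against the controls the block took the SE of Lef1 from 0.53 to 0.28 and that of Wnt3a from 0.445 to 0.268. That of Notum hardly moved (0.200 and 0.201).

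The members and all lists were chosen with earlier results of these data known. Named genes are the members, up to 3 called genes per direction, list and comparison with the smallest adjusted p, paralogs of members, and Ctnnb1, Sp5, T, Esrrb and Nanog. Promoter windows came from RefSeq on GRCm38.p6.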

Additional observations from a re-analysis of the deposited data

Results flagged for a closer look

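Wnt3a was flagged because every Sin3a knockdown library lay below the controls and every Fam60a knockdown library above them. Its log2 fold change between the Sin3a and the Fam60a knockdown was -4.98 (SE 0.64), from 4 reads in the Sin3a knockdown and 197 in the Fam60a knockdown. Cdx1 was flagged for the same reason, with a log2 fold change of -1.78 (SE 0.30) between the Sin3a and the Fam60a knockdown. The adjusted p of the fit is not given as a test for either gene, because both were chosen with these values known. Without Sin3a knockdown replicate 3 the values were -4.72 for Wnt3a and -1.64 for Cdx1.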

How the results depend on the processing

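Over 30 results of the members and 449 values under alternatives, 378 stayed on their side of the threshold, 57 lost a call, 14 gained one and 0 called values changed sign. Only a result called as reported could lose a call. Of the 10 members, 5 were not called in the Sin3a knockdown, 5 in the Fam60a knockdown and 7 between the knockdowns. Many of the 378 are thus values that stayed uncalled. Values that were not called could change sign, as Tcf7 in the Sin3a knockdown did (-0.25, and 0.12 without Sin3a knockdown replicate 3). For the other named genes, of 1106 values, 953 stayed on their side, 128 lost a call, 25 gained one and 0 called values changed sign. Of the other Wnt pathway genes, 10 were called in the Sin3a knockdown against the controls as reported. The count was 16 with DESeq2 (beside 17.3% of all genes) and 17 with the replicate block (15.0%). It was 5 in the fit of the 6 libraries of these groups, and 1 to 20 with 1 library left out. In the Fam60a knockdown against the controls 4 were called as reported, against 14 with DESeq2 (beside 8.16% of all genes) and 8 with the replicate block (6.13%). There were 15 in the fit of 6 libraries, and 0 to 19 with 1 library left out. Between the knockdowns 4 were called, against 7 with DESeq2 (beside 9.21% of all genes) and 2 with no filter. There were 0 in the fit of 6 libraries (8 at an unadjusted p under 0.05) and 0 to 12 with 1 library left out. The fit of 6 libraries drops the third group from the estimate of spread. For the other changes the cause was not tested. Where no share over all genes stands beside a count, a change in the list is not set apart from a change over all genes.

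Of the Hox and Tcf7l1-repressed genes together, 1 was called in the Sin3a knockdown against the controls as reported and 0 in the fit of 6 libraries (1 at an unadjusted p under 0.05), with 0 to 1 when a library was left out. In the Fam60a knockdown 0 were called by edgeR as reported (1 at an unadjusted p under 0.05), against 1 with DESeq2 and 1 in the fit of 6 libraries, with 0 to 2 when a library was left out. Between the knockdowns 0 were called (0 at an unadjusted p under 0.05, 0 by DESeq2), with 0 to 1 when a library was left out.

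The log2 fold change of Fam60a in its own knockdown was -1.19 with no filter (edgeR adjusted p = 0.0539) and ranged from -1.33 to -1.15 with 1 library left out, and the cause was not tested. Sin3a was called in its own knockdown under all 15 alternatives. Among the members with few reads, Wnt3a in the Sin3a knockdown and Cdx4 outside the Fam60a knockdown lie near the floor of 3 reads, so the size of their fold changes is limited by depth.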
